A study of Bos taurus with 15 samples.

Results

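Newborn liver macrophages were defined as barcodes of the NB liver library with 500 to 4000 detected genes, under 50000 unique molecular identifiers (UMIs), at least 1 UMI each of *C1QA* and *C1QB*, and 0 UMIs of *CD3E*. *C1QA* and *C1QB* encode chains of complement C1q, which macrophages produce, and *CD3E* encodes a chain of the T cell receptor complex. The rule took 3311 of the 13669 barcodes of the library, from a series of 172405 barcodes in 15 libraries. Of the 12734 liver barcodes within the limits on genes and UMIs, 26.0% were members (exact binomial 95% interval 25.2% to 26.8%). Because members were chosen by the UMIs of *C1QA*, *C1QB*, and *CD3E* measured in the same barcodes, the levels of these genes are no result, and the other genes of these barcodes are given as a description.

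The series used 10x Genomics single-cell RNA sequencing, which tags RNA with a barcode for its cell and a UMI for its molecule, on tissues of Holstein cattle at the newborn (NB, 11 libraries) and adult (AD, 4 libraries) stages. Each tissue and stage was 1 library, so no test was made, no replicate error exists, and all intervals cover counting error only. Members were set against 6693 other barcodes of the NB liver with a UMI of *PTPRC* (the leukocyte antigen CD45) and against barcodes that passed the same rule in NB duodenum (794), jejunum (3311), ileum (427), cecum (853), colon (452), and rectum (223). The equal numbers of liver and jejunum are a coincidence, and 6 barcode sequences passed the rule in both. All of these groups came from newborn Holstein calves without a treatment or genotype in the labels, and the calf behind each library is not named. The NB liver was dissociated with collagenase I, papain, and DNase I, whereas the NB intestine was treated with EDTA and trypsin before a lamina propria kit. Tissue and dissociation cannot be told apart in any comparison of liver with intestine.

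Macrophages of the liver, the Kupffer cells, line the sinusoids, where they take up particles, lipoproteins, and aged red cells from the portal blood. They recycle the iron of heme, and they are known for the scavenger receptor MARCO, the secreted scavenger protein CD5L, the complement receptor VSIG4, and the iron exporter ferroportin. Monocyte-derived cells can enter the same niche, and macrophages of the intestinal lamina propria live beside the gut epithelium and present antigen.

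Total UMIs per library were 17707625 to 129458578, and the NB liver had 85678587. Members had a median of 8673 UMIs and 2450 genes, against 4531 UMIs and 1466 genes in the other *PTPRC* barcodes. The median share of mitochondrial UMIs in members was 3.07%, and 0 members were over the 40% limit that the study used. Of the liver barcode sequences, 591 also occurred in another library, 143 of them members. When these were left out, no named gene changed direction.

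The macrophage label was checked against genes that the rule did not use. *C1QC*, the remaining C1q chain, had a UMI in 92.1% of members, the colony-stimulating factor 1 receptor gene *CSF1R* in 83.0%, the lysosomal glycoprotein gene *CD68* in 79.6%, and *PTPRC* in 83.2%. In gated barcodes of the NB intestinal libraries, *PTPRC* was found in 31.9% (colon) to 70.7% (cecum) and *C1QC* in 85.4% (jejunum) to 98.5% (colon). Their median UMIs were 2736 (colon) to 11263 (cecum). These shares depend on depth, so each barcode was thinned to 1000 UMIs, which left out 16 members. After thinning, *C1QC* was found in 83.1% of members, *CD68* in 39.9%, and *CSF1R* in 30.2%. In liver barcodes with *CD3E* and no *C1QA* or *C1QB*, which should lack these genes and had a median of 2595 UMIs, the thinned shares were 6.92%, 3.93%, and 1.84%. These barcodes were chosen for 0 UMIs of the rule's own genes, which can lower these shares, so they are no independent control. Without thinning, the 563 liver barcodes with *C1QA*, *C1QB*, and *CD3E* held *C1QC* in 73.9%, *CD68* in 60.4%, and *CSF1R* in 57.7%. A UMI of *C1QA* alone marked no cell type in this library: it occurred in 52.8% of all liver barcodes within the limits and in 35.6% of those with *CD3E*. Levels below are CPM, the summed UMIs of a gene in a group of barcodes scaled to a group total of 1000000. Markers of several other cell types were near 0 in members: 9 listed erythroid genes summed to 3.70 CPM with 4 of them at 0, 5 mast cell genes to 2.72 CPM, and 5 progenitor genes to 2.09 CPM. The erythroid sum was also low in the other *PTPRC* barcodes, at 6.09 CPM. The 9 neutrophil genes summed to 20.7 CPM, against 54.3 CPM in the other *PTPRC* barcodes, and the 8 endothelial genes to 187 against 69.2 CPM. Several further lists were not near 0. The 8 monocyte genes summed to 4064 against 9181 CPM, and the 14 hepatocyte genes to 1022 against 767 CPM. The 6 type 2 dendritic cell genes summed to 676 against 371 CPM, and the 7 natural killer cell genes to 214 against 242 CPM. The 6 B cell genes summed to 95.3 against 107 CPM, and the 4 plasma cell genes to 125 against 394 CPM.

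At the edges of the rule, 235 members held exactly 1 UMI each of *C1QA* and *C1QB*, and 1006 *PTPRC* barcodes without *CD3E* fell just outside with 1 UMI of either gene and 0 of the other. Inside and outside this edge, *S100A8*, a calprotectin subunit gene of monocytes and neutrophils, was at 1629 and 1849 CPM, *CD68* at 77.7 and 99.0 CPM, and *MARCO* at 42.1 and 36.2 CPM. Both sides of this edge were thus closer to each other than to the levels over all members, at which *S100A8* was 345 CPM and *MARCO* 2182 CPM. A further 563 barcodes had *C1QA* and *C1QB* but at least 1 UMI of *CD3E*, and their *MARCO* level was 1641 CPM. Another 143 exceeded 4000 genes (median 23000 UMIs, *MARCO* 1145 CPM), and 124 had under 500 genes. Within 50 genes of the lower limit lay 28 members and 20 barcodes outside it, and within 100 genes of the upper limit lay 25 members and 29 barcodes outside it.

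Levels of Kupffer cell and monocyte genes varied with the amount of C1q, which the rule used, so the strata are a description. *C1QA* and *C1QB* together made up under 0.1% of UMIs in 405 members (12.2%), 0.1% to 0.3% in 315 (9.51%), 0.3% to 1% in 815 (24.6%), and 1% or more in 1776 (53.6%). The last share was 43.8% to 76.3% in gated barcodes of the NB intestinal libraries, and the first was 5.97% (colon) to 20.2% (jejunum). Over these 4 strata, *MARCO* was at 52.5, 258, 406, and 3829 CPM, and *CD5L* at 2.64, 22.4, 26.0, and 292 CPM. *HMOX1*, heme oxygenase 1, was at 370, 1442, 2484, and 4694 CPM. The order was the opposite for genes of monocytes and neutrophils. *S100A8* was at 1374, 638, 269, and 78.7 CPM, *S100A12* at 4098, 2421, 1196, and 429 CPM, and *VCAN*, a monocyte proteoglycan, at 119, 111, 71.7, and 26.8 CPM. *FCN1*, the monocyte ficolin, was at 2129, 2302, 1675, and 726 CPM, with its highest value in the second stratum. *FLT3*, a receptor gene of dendritic cells and progenitors, was at 47.0, 20.0, 11.4, and 3.45 CPM. At 1% or more C1q and 1000 UMIs per barcode, *FCN1* had a UMI in 35.3% of barcodes, *S100A12* in 17.5%, and *MARCO* in 28.0%, against 5.08%, 9.15%, and 3.46% in liver *CD3E* barcodes. For scale, liver *CD3E* barcodes without *C1QA* and *C1QB* held *S100A8* at 300.3 CPM, *S100A12* at 794 CPM, *FCN1* at 347 CPM, *HMOX1* at 102 CPM, and *MARCO* at 32.4 CPM. RNA of these genes was thus also counted in barcodes outside the rule, and its part in the strata was not tested. In the highest stratum, *S100A8* and *S100A12* were below these levels.

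**Figure D1:**
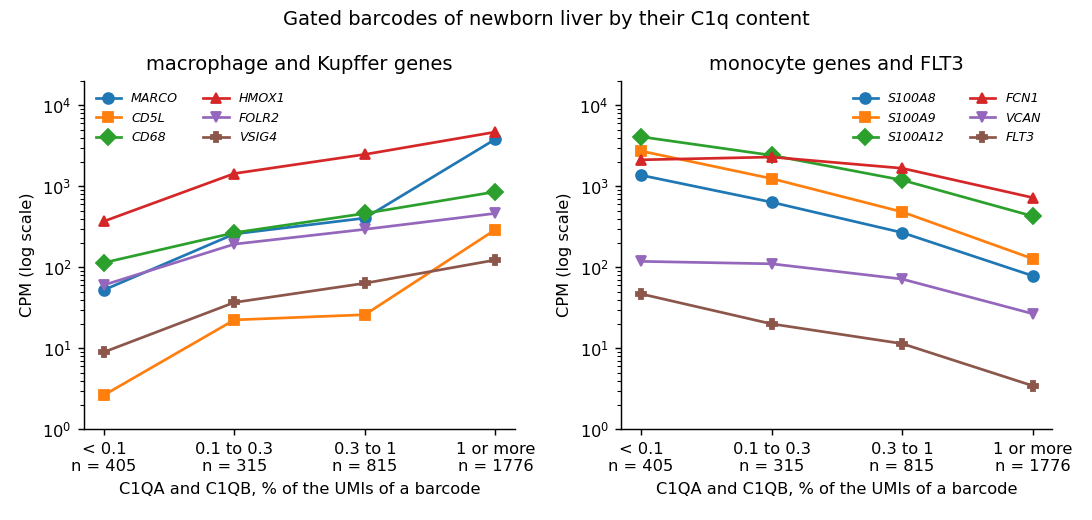
Levels in CPM (log axis) of 6 Kupffer cell or macrophage genes (left) and 6 monocyte, neutrophil, or dendritic cell genes (right) in 4 strata of members by the percent of UMIs from *C1QA* and *C1QB*. *MARCO* reaches 3829 CPM in the highest stratum and *S100A8* 1374 CPM in the lowest. The strata are of 1 library and describe the rule's own genes.

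Against the other *PTPRC* barcodes of the liver, of which 3541 (52.9%) held *CD3E*, members had 4-fold or higher levels of 35 of 7200 genes tested (0.486%) and 4-fold or lower levels of 86 (1.19%). The fold was taken on CPM with 5 CPM added, among genes at 10 CPM or more in either group. The rule used this contrast, so these counts describe the gate. *MARCO* was at 2182 CPM in members (Poisson 95% interval 2165 to 2199) and 199 CPM in the others, a log2 ratio of 3.42. *CD5L* was at 165 and 14.9 CPM (log2 3.098), the ferroportin gene *SLC40A1* at 205 and 25.0 CPM (2.81), and *HMOX1* at 3299 and 616 CPM (2.41). Without 394 members in the *MARCO* subclusters described later, 6 of the 20 genes named as higher were under 4-fold: the log2 ratio was 0.50 for *MARCO* (283 CPM), −0.021 for *CD5L* (14.6 CPM), 1.04 for *SLC40A1* (56.7 CPM), 0.49 for *CDH5*, 0.83 for *RARRES2*, and 1.90 for *ADA*, while *HMOX1* was at 2.12. These subclusters were picked for *MARCO* and *CD5L* among their leading genes, and *SLC40A1*, *RARRES2*, and *CDH5* also led 1 or both. A fall of these genes, and of lists that hold them, was thus set by that choice. Among the 20 highest log2 ratios over all members were also genes of lipid transport, with the phospholipid transfer protein gene *PLTP* at 403 and 42.8 CPM (3.09) and *APOE*, apolipoprotein E, at 507 and 58.9 CPM. Surface receptors were *FOLR2*, a folate receptor, at 346 and 63.4 CPM (2.36), *VSIG4* at 86.1 and 14.9 CPM (2.19), and the high-affinity IgG receptor gene *FCGR1A* at 262 and 47.6 CPM (2.34). *C1QC* was at 5376 and 526 CPM (3.34).

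The remaining genes of that set had varied roles. They were the monocyte chemokine gene *CCL2* (111 against 9.88 CPM), the chemokine gene *CCL8*, the adhesion molecule gene *VCAM1* (102 against 9.93 CPM), the cadherin gene *CDH5*, the syndecan gene *SDC3*, the adenosine deaminase gene *ADA* (394 against 67.1 CPM), the metalloproteinase gene *MMP14*, *RARRES1*, *RARRES2*, and the transthyretin gene *TTR*. Their log2 ratios ran from 2.27 for *RARRES1* to 2.96 for *CCL2*. The 20 genes with the lowest ratios were mainly of lymphocytes. *CD52*, a lymphocyte surface glycoprotein gene, was at 71.2 CPM in members and 1320 CPM in the others (log2 −4.12), *CTSW*, a protease of cytotoxic cells, at 38.2 and 635 CPM, and the T cell kinase genes *LCK* and *ZAP70* at 4.85 and 3.25 CPM against 76.3 and 65.8 CPM. All 20 were higher in *CD3E* barcodes than in members. Of the 11 tested genes of the Kupffer cell identity list, 6 were 4-fold or higher, with a list median of 2.14 against 0.04 over all genes tested and 1.23 without the *MARCO* subclusters. The list of iron and heme genes had a median of 1.39, of macrophage core genes 1.05, of lysosomal genes 1.00, of class II presentation genes 0.14, and of monocyte genes −0.84. The class II median changed sign with other settings.

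*MARCO* was not evenly spread over the members. No UMI of it was found in 1973 members (59.6%), 1 to 9 were found in 837 (25.3%), 10 to 49 in 202 (6.10%), and 50 or more in 299 (9.03%). The last 299 barcodes held 89.5% of all *MARCO* UMIs of the members. In the whole liver library, 654 barcodes had 10 or more *MARCO* UMIs, and 501 of them (76.6%) were members. Of the rest, 74 had C1q together with *CD3E*, 55 lay outside the limits on genes or UMIs, and 24 had 0 of *C1QA* or *C1QB*. The *MARCO* level of the other *PTPRC* barcodes came largely from the first of these kinds, since 470 of them (7.02%) had *C1QA*, *C1QB*, and *CD3E* and held 80.5% of that group's *MARCO* UMIs.

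Set against the intestine, the members differed most in *MARCO*. Its levels were 2.85 CPM in duodenum (20 UMIs), 7.54 in jejunum (231 UMIs), 9.38 in colon (23 UMIs), and 0 in ileum, cecum, and rectum, against 2182 CPM in liver. The log2 ratio to colon, the highest of them, was 7.25. In the intestine, *MARCO* was found in 15 of the 6060 gated barcodes, and 1 barcode of the jejunum held 140 of its 231 UMIs. None of these intestinal UMIs lay in a barcode sequence shared with the liver. *CD5L* was at 165 CPM in liver, 8.54 in duodenum (60 UMIs), 3.79 in jejunum (116 UMIs), 1.84 in rectum (4 UMIs), 0.11 in cecum (1 UMI), and 0 in ileum and colon. Its log2 ratio to duodenum was 3.65, and it was found in 9 intestinal gated barcodes. Without the 394 members in the *MARCO* subclusters described later, *CD5L* was not 4-fold above the duodenum. After thinning to 1000 UMIs, *MARCO* was in 20.5% of members (95% interval 19.2% to 21.9%) and in at most 0.224% of barcodes in an intestinal library, while *CD5L* was in 9.71% of members. In liver *CD3E* barcodes the thinned shares were 3.46% and 0.468%.

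Other genes of Kupffer cell identity did not separate liver from intestine in this way. Of the 11 genes of that list that were tested, 7 were higher in liver than in all 6 intestinal libraries, 2 were lower than in all of them, and the median log2 ratio to the intestinal median was 1.30, against 0.12 over all 8402 genes tested. Without the *MARCO* subclusters described later, the list median was 0.997. Over all genes, 32% were above the highest and 16.9% below the lowest intestinal library. *NR1H3*, the liver X receptor alpha gene, was at 300 CPM in liver and 52.1 to 230 CPM in intestine. *CD163*, the hemoglobin scavenger receptor gene, was at 181 CPM against 31.8 to 138, the transcription factor gene *SPIC* at 52.4 CPM against 5.28 to 33.0, and *SLC40A1* at 205 CPM against 54.2 to 187. The liver value lay outside each of these ranges, but by less than the 4-fold rule. For *SLC40A1* it rested on 394 members of the *MARCO* subclusters described later, since the other 2917 members were at 56.7 CPM, inside the intestinal range. *VSIG4* at 86.1 CPM lay inside its intestinal range of 35.5 to 150 CPM. *TIMD4*, a phosphatidylserine receptor gene of long-lived resident macrophages, was lower in liver (169 CPM) than in duodenum (856), jejunum (595), ileum (4168), cecum (521), colon (2179), and rectum (220). *FOLR2* was also lower, at 346 CPM against 509 to 891. *CLEC4F*, a C-type lectin gene that marks Kupffer cells of mice, was at 2.34 CPM and below the minimum for the comparison.

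**Figure D2:**
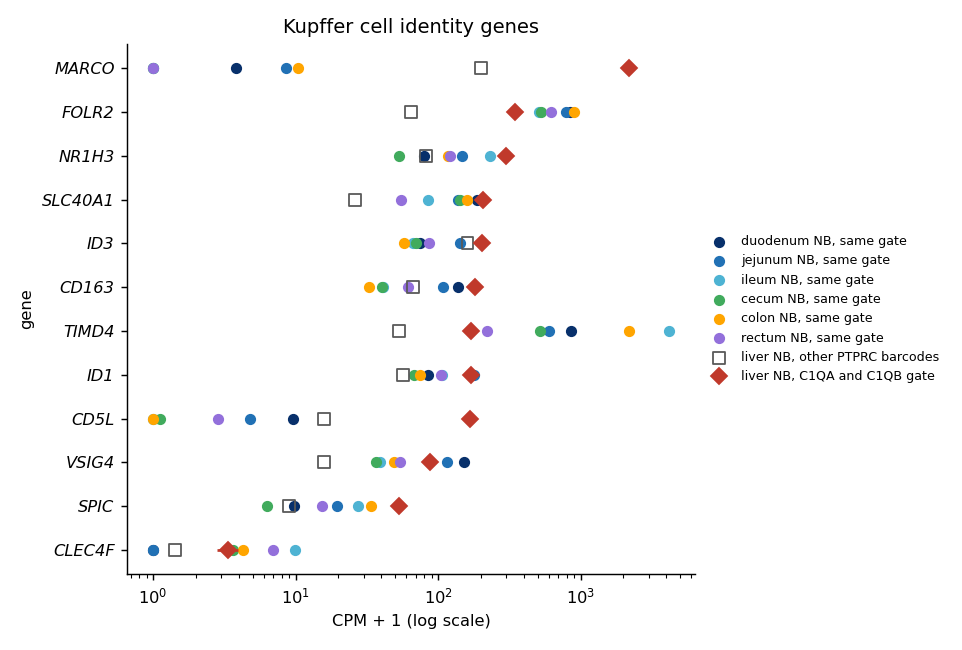
Levels of 12 Kupffer cell identity genes (CPM + 1, log axis) in the liver members (red diamond, with Poisson 95% intervals), the other *PTPRC* barcodes of liver (open square), and gated barcodes of the 6 NB intestinal libraries (dots). *MARCO* and *CD5L* stand far to the right of all intestinal dots, *VSIG4* lies among them, and *TIMD4* and *FOLR2* lie to the left of them.

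Of 12 iron and heme genes tested, 7 were above all 6 intestinal libraries and 0 below all of them, with a median log2 ratio of 0.65, which was 0.30 without the *MARCO* subclusters. By the 4-fold rule, 1 of them, *SLC11A1*, was above. *HMOX1* was at 3299 CPM in liver and at 964, 1163, 734, 931, 535, and 832 CPM from duodenum to rectum. *SLC11A1*, the phagosomal metal transporter NRAMP1, was at 388 CPM in liver against 51.4, 80.5, 15.95, 50.0, 18.3, and 70.7 CPM. In *CD3E* barcodes it was also higher in liver, at 45.6 CPM against an intestinal median of 2.51 CPM. *BLVRB*, a biliverdin reductase gene, was at 330 CPM against 63.6 to 129, and the ferritin light chain gene *FTL* at 9426 CPM against 4925 to 7507. The liver value lay outside the intestinal range for each of these 4 genes. *FTH1*, the ferritin heavy chain gene, was at 13761 CPM and inside its range of 6901 to 17398 CPM.

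Class II presentation and lysosomal genes were more often below than above the intestinal range, and none of either list was 4-fold below it. Of 9 class II genes tested, 6 were below all intestinal libraries and 0 above, with a median log2 ratio of −1.19. *BOLA-DRA*, a class II alpha chain gene, was at 3957 CPM in liver and at 19690, 13757, 7767, 15125, 9989, and 10590 CPM from duodenum to rectum. *CD74*, the invariant chain gene, was at 3193 CPM against 9465 to 19558. Of 21 lysosomal genes, 12 were below all intestinal libraries and 1 above, with a median of −0.42, and with the cathepsin A gene *CTSA* at 294 CPM against 638 to 1806 and the acid phosphatase gene *ACP5* at 242 CPM against 553 to 1889. Of 15 lipid genes tested, 3 were above all intestinal libraries and 6 below, with a median of −0.35, and 1 was 4-fold below. Among them, *APOE* was at 507 CPM in liver and at 16302, 26808, 79115, 4560, 26736, and 6503 CPM in the intestinal libraries, whereas *LPL*, lipoprotein lipase, was at 23.0 CPM in liver and 0 to 5.05 CPM in intestine. With 1% or more C1q, *APOE* was at 767 CPM in liver and 5140 to 34410 CPM in intestine, with the ileum at 13844 CPM. In *CD3E* barcodes *APOE* was at 58.5 CPM in liver and 101 to 1114 CPM in intestine, so its RNA was counted outside the gate as well.

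Of 15 complement genes tested, 4 were above all intestinal libraries and 2 below, and of 11 pattern recognition and inflammasome genes 4 were above and 1 below. Over all genes, 32% were above and 16.9% below, and none of either list passed the 4-fold rule. The properdin gene *CFP* was at 744 CPM in liver and 107 to 277 CPM in intestine, *CD55*, a complement regulator, at 237 against 3.99 to 63.8, and *TLR2*, a receptor for bacterial lipoproteins, at 87.7 against 0.997 to 41.8. *LY96* and *MYD88*, partners of Toll-like receptors, were at 156 and 142 CPM, and both were above every intestinal library. *TLR7*, a receptor for single-stranded RNA, was below them, at 21.96 against 25.1 to 60.2 CPM. Of 19 cytokine genes 9 were below all intestinal libraries and 1 above, and of 20 chemokine and receptor genes 12 were below and 2 above, with medians of −0.80 and −1.24. By the 4-fold rule, 1 cytokine gene and 2 chemokine or receptor genes were below. *TNF*, an inflammatory cytokine gene, was at 62.5 CPM against 260 to 512, *IL18* at 172 against 253 to 1045, and the chemokine genes *CCL4* at 177 against 636 to 1393 and *CCL24* at 17.9 against 65.6 to 252. An exception was *CX3CR1*, the fractalkine receptor gene of monocytes and resident macrophages, at 83.2 CPM against 0.854 to 43.6. The macrophage growth factor receptor gene *CSF1R* was lower than in all intestinal libraries (402 against 656 to 883 CPM). The interferon gamma receptor gene *IFNGR1* was higher (293 against 110 to 138 CPM), as were *RXRA*, a partner of nuclear receptors, at 132 against 20.8 to 40.4 CPM and *F13A1*, coagulation factor XIII, at 700 against 15.4 to 288 CPM.

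Of 7 monocyte genes tested, 6 were above all 6 libraries, with a median log2 ratio of 5.11 and a summed level of 4064 CPM against 189 to 1627 CPM. The same list had a median of 5.75 between *CD3E* barcodes of liver and intestine. None of the 7 was 4-fold above every intestinal library. The calprotectin genes *S100A8* and *S100A9* were at 345 and 657 CPM in members, against 300.3 and 589 CPM in liver *CD3E* barcodes. *S100A12* was at 1275 against 794 CPM and *FCN1* at 1281 against 347 CPM. Cell division genes had a median of 0.43 and transcription factor genes of 0.13, against 0.12 over all genes.

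By the 4-fold rule against every intestinal library, 25 of 8402 genes were above (0.298%) and 31 were below (0.369%). Without the rectum, 52 genes were above. Of the 25, 17 were also 4-fold above the intestinal median in *CD3E* barcodes of the same libraries, and of the 31, 9 were 4-fold below it there. The share of all genes that passed in *CD3E* barcodes is not given here, so these 2 counts have no background to be read against. With a gene symbol and a level of at least 50 CPM, 12 genes were above and 19 below. Of the 12, *MARCO*, *CD5L*, *SLC11A1*, and *ADGRE1*, the gene of the macrophage marker F4/80, are macrophage genes. The call of *CD5L* rested on the *MARCO* subclusters described later. *ADGRE1* was at 93.4 CPM in liver and 2.61 to 14.2 CPM in intestine. *VNN2*, a vanin gene of myeloid cells, was at 129 against 1.85 to 28.5 CPM, and *RASGRP2*, a Rap activator gene of leukocytes, at 56.6 against 1.14 to 10.2 CPM. *RASGRP2* was at 142 CPM in liver *CD3E* barcodes so its level was higher outside the gate. In *CD3E* barcodes, *SLC11A1* was at 45.6 CPM in liver against an intestinal median of 2.51, and *VNN2* at 27.8 against 2.56. *MARCO* was at 32.4 against 0 there. These genes were 4-fold or more higher in *CD3E* barcodes as well, whereas *CD5L*, *ADGRE1*, and *RASGRP2* were not. Other *PTPRC* barcodes of liver held *SLC11A1* at 203 CPM and *VNN2* at 151 CPM. The other 6 of the 12 belong to the hepatocyte list.

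The 19 genes below all intestinal libraries were led by *PLA2G2D4*, a secreted phospholipase gene (5.73 against 674 to 1932 CPM), *DNASE1L3*, a secreted DNase gene (14.0 against 433 to 1816 CPM), and *OLFM4*, a gene of intestinal crypt epithelium (2 UMIs in liver against 50.6 to 481 CPM). In intestinal barcodes with 1% or more C1q, *OLFM4* was at 2.41 to 85.2 CPM. Reads of *PLA2G2D4* may be split with its close relative *PLA2G2D1*, chosen after its values were seen, which was at 38.4 CPM in liver and 131 to 779 CPM in intestine. *CD2*, an adhesion receptor gene known from T cells, was at 2.69 CPM in liver members and 60.6 to 254 CPM in gated intestinal barcodes. In intestinal barcodes with 1% or more C1q it was at 93.9 to 324 CPM, and in intestinal *CD3E* barcodes at 59.8 to 121 CPM. The retinoic acid enzyme gene *ALDH1A1* was at 7.93 against 75.3 to 204 CPM, *RARRES1*, a retinoid-responsive gene, at 94.6 against 744 to 2725, *CCL8* at 78.9 against 447 to 1431, and *BPI*, whose product kills Gram-negative bacteria, at 47.8 against 267 to 3889. *EGR1* (92.0 against 674 to 823 CPM) and *PPP1R15A* (113 against 606 to 813 CPM) respond to stress and stimulation. Of 19 immediate early and stress genes, 14 were below all intestinal libraries, with a median log2 ratio of −0.77. The same list had a median of −0.91 in *CD3E* barcodes, so this difference was as large outside the gate in the same libraries. Between members and gated intestinal barcodes that both had 1% or more C1q, 11 of the 25 genes called above and 24 of the 31 called below passed the 4-fold rule again. Of the named genes, these were 9 of the 12 above, all but *TF*, *FGG*, and *VNN2*, and 18 of the 19 below, all but *OLFM4*. In all, 29 genes were above and 42 below with 1% or more C1q. The barcodes of that setting are part of those compared before, so passing again is no independent check.

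**Figure D3:**
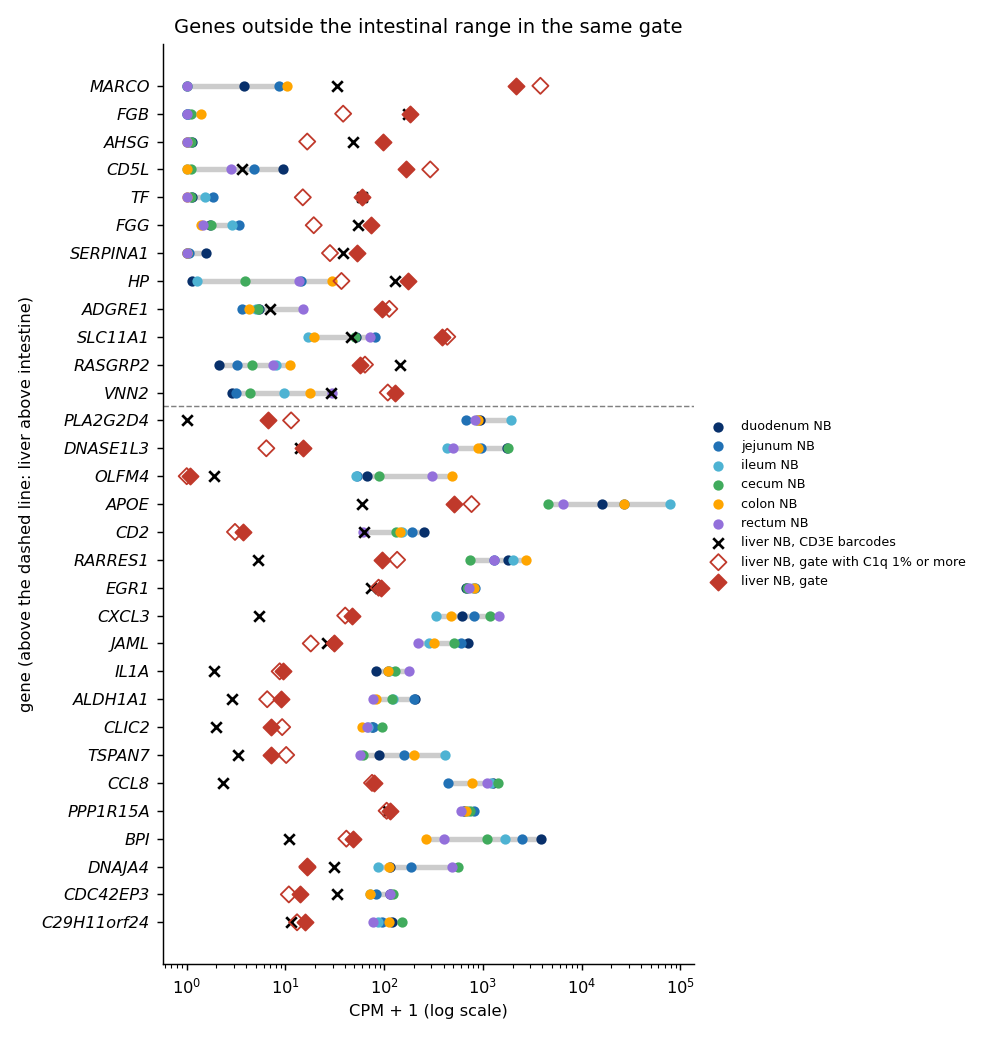
Levels (CPM + 1, log axis) of the 12 genes above and the 19 genes below all 6 NB intestinal libraries. Dots and bars show the intestinal libraries and their range, crosses liver *CD3E* barcodes, open diamonds members with 1% or more C1q, and red diamonds all members. The liver cross lies near the red diamond for *FGB* (172 and 182 CPM) and far below it for *MARCO* (32.4 and 2182 CPM).

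Hepatocyte genes, which encode secreted plasma proteins, were counted in the members. The fibrinogen gene *FGB* was at 182 CPM in members, 37.0 CPM in other *PTPRC* barcodes, and 172 CPM in *CD3E* barcodes without *C1QA* and *C1QB*, and at most 0.408 CPM in the intestine. *TF*, transferrin, was at 58.6 CPM in members and 59.2 CPM in *CD3E* barcodes, *AHSG*, fetuin A, at 95.4 and 47.6 CPM, and the haptoglobin gene *HP* at 172 and 128 CPM, while *HP* was at 482 CPM in the other *PTPRC* barcodes. Among members, *HP* was at 626 CPM in subcluster 2, which *S100A9* led, with a UMI in 50.4% of its barcodes, and at 76.7 CPM in the rest. *ALB*, albumin, was at 26.3 and 25.4 CPM and listed at 0 in all 6 intestinal libraries. Some of these levels came from few members. *FGB* was at 1388 CPM in 526 members (subcluster 4 of the clustering described later) and 33.3 CPM in the rest, and *AHSG* at 12151 CPM in 17 members (subcluster 10) and 22.8 CPM in the rest. In the rest, both were thus below the *CD3E* barcodes. Members with 1% or more C1q had *FGB* at 37.4 CPM and *HP* at 35.9 CPM. Of 13 hepatocyte genes tested, 8 were 4-fold above every intestinal library, and the list summed to 1022 CPM in members. The intestinal sums were 13.0 to 1103 CPM, since *APOA1*, which the gut also makes, reached 1022 CPM in an intestinal library. These genes were thus also counted in *CD3E* barcodes of the same library, which were not required to hold *PTPRC* and whose cell type was not checked. How much of their RNA came from outside the barcoded cell was not tested.

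**Figure D4:**
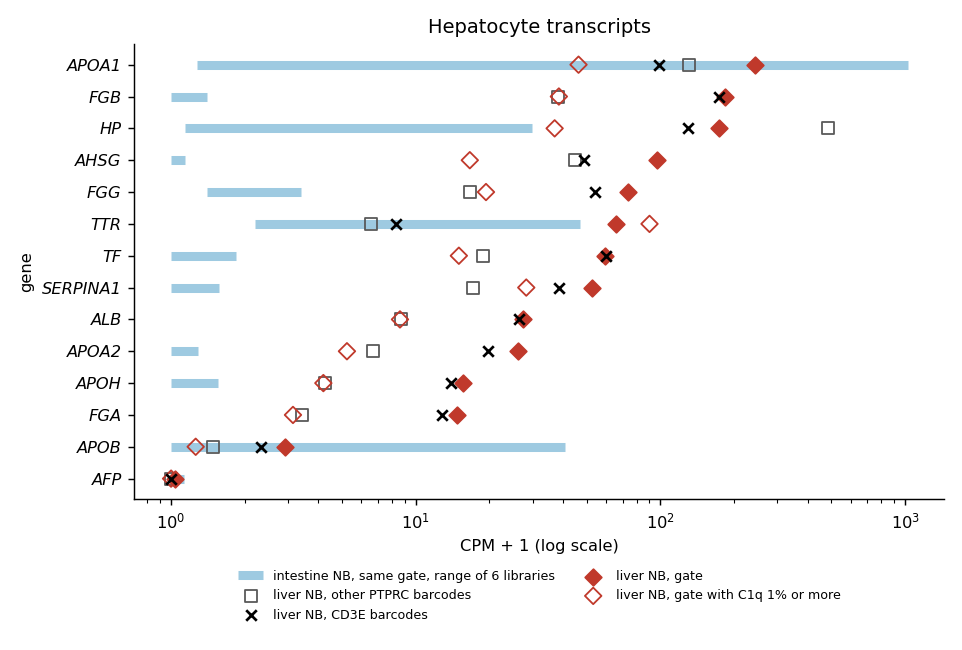
Levels (CPM + 1, log axis) of 14 hepatocyte genes in the liver members, members with 1% or more C1q, other *PTPRC* barcodes, *CD3E* barcodes, and, as a bar, the range of the 6 NB intestinal libraries. For *FGB* and *TF* the *CD3E* barcodes lie beside the members, at 172 and 59.2 CPM, and *ALB* and *FGA* have no bar because they were listed at 0 in all 6 libraries.

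The members fell into 10 subclusters (Leiden resolution 0.5), described here by their leading genes without a test, since the clustering used the same genes. The leading genes of subclusters were chosen after their values were seen. The division depended on the settings. Resolution 1 gave 17 clusters and 10 principal components gave 11. The adjusted Rand index, which is 1 for the same division, was 0.506 and 0.465 against the 10 subclusters used here. Subcluster 1 (951 barcodes, 28.7%) was led, in order, by *SPIC* at 140 CPM, the serum amyloid gene *SAA3*, with a UMI in 4.21% of its barcodes, and the defensin genes *EBD*, in 8.41%, and *DEFB4A*, in 28.1%. The rest of its 10 leading genes included *IGF1*, *STAB1*, and *VSIG4* at 157 CPM. Subcluster 2 (564, 17.0%) was led by *S100A9* at 3122, *S100A8* at 1620, and *S100A12* at 5436 CPM, with *LYZ*, lysozyme, at 2814 and *FCN1* at 3797 CPM, which are monocyte and neutrophil genes, and its median C1q share was 0.287%. Subcluster 3 (558, 16.9%) was led by the chemokine genes *CXCL9*, with a UMI in 1.25% of its barcodes, and *CCL2* at 381 CPM, in 25.4%, and held the replication helicase gene *MCM2*, in 36.7%. The 11 class II genes summed to 17993 CPM in it against 5385 CPM in the other members, with 7 of them 2-fold or more higher. Of 6 type 2 dendritic cell genes, 4 were 2-fold or more higher, and the list summed to 811 against 642 CPM. So were 2 of 6 type 1 dendritic cell genes, 1 of 5 plasmacytoid dendritic cell genes, and 8 of 22 cell division genes. The share of all genes that were 2-fold higher in this subcluster is not given, so these counts have no background to be read against. Subcluster 4 (526, 15.9%) was led by the hepatocyte genes *FGB* at 1388 CPM, with a UMI in 18.3% of its barcodes, and *FGG* at 510 CPM. Subcluster 6 (142, 4.29%) was led by the plasma cell gene *JCHAIN*, in 12.7% of its barcodes, and the cell division genes *TOP2A* at 892 and *MKI67* at 664 CPM.

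Subcluster 7 (122) was led by *CCL1*, with a UMI in 8.20% of its barcodes, the smooth muscle gene *ACTA2*, in 1.64%, and then by *CTSW* at 977 CPM, in 79.5%, and *UBD*, in 90.2%, subcluster 9 (37) by *CLEC3B* at 2184 CPM, in 97.3%, and then the endothelial genes *CLDN5* at 778 and *STAB2* at 647 CPM, and subcluster 10 (17) by *APOA1*, *AHSG*, and *TM4SF4*, with the epithelial gene *EPCAM* in the tenth place. Of all members, 234 (7.07%) were marked as doublets. The marked share was 50% in subcluster 7, 62.2% in subcluster 9, 41.2% in subcluster 10, 15.5% in subcluster 6, and 1.33% in subcluster 4, and 0% to 9.32% in the others. Among the 563 barcodes with C1q and *CD3E*, which the rule left out, 283 were marked.

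**Figure D5:**
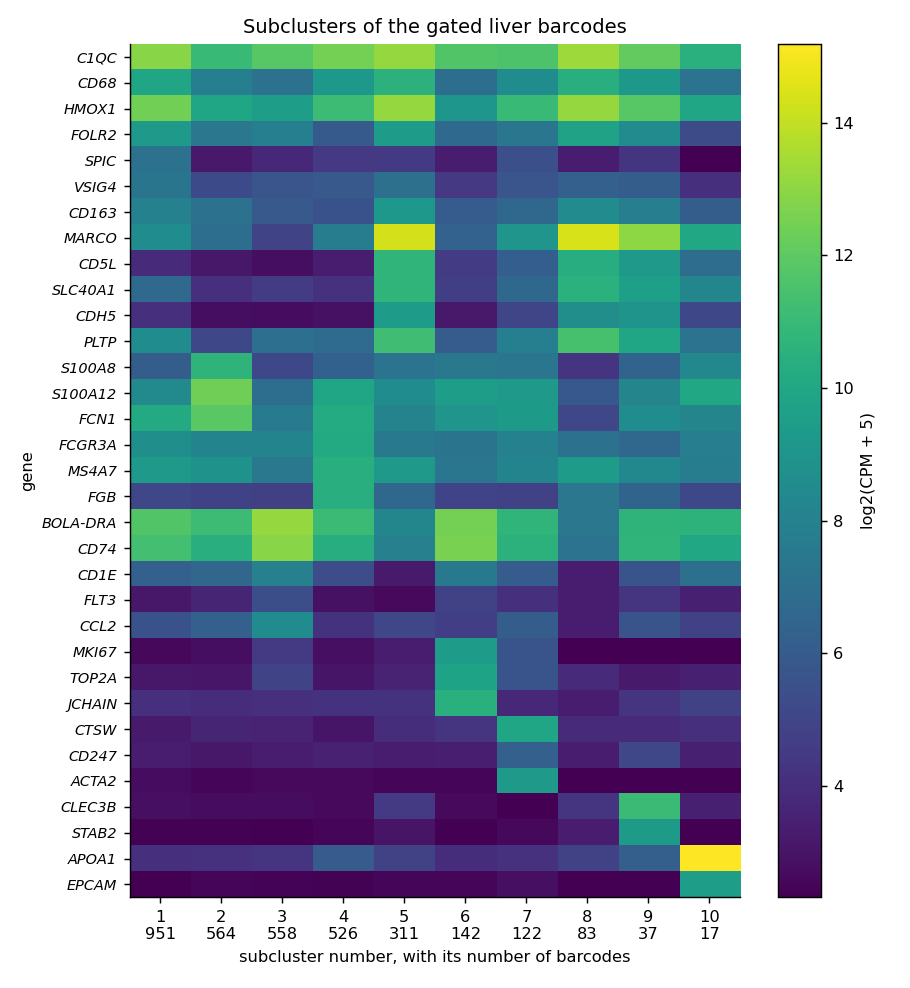
Heat map of 33 genes (log2 of CPM + 5) in the 10 subclusters of the liver members, with the number of barcodes of each. *MARCO* and *CD5L* are brightest in subclusters 5 and 8, the *S100A* genes in subcluster 2, *MKI67* in subcluster 6, *FGB* in subcluster 4, and *APOA1* in subcluster 10.

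Subclusters 5 (311 barcodes) and 8 (83) both had *MARCO* and *CD5L* among their 10 leading genes. They are called the *MARCO* subclusters and given no cell type name, since the endothelial genes *PLVAP*, in both, and *CDH5*, in subcluster 5, were also among those 10. Together they were 394 barcodes, 11.9% of members (95% interval 10.8% to 13.1%). They held 88.2% of the members' *MARCO* UMIs and 92.0% of the *CD5L* UMIs. *MARCO* was at 20971 CPM in them, with a UMI in 94.2% of barcodes and a median of 108.5 UMIs per barcode, against 283 CPM and 33.2% in the other 2917 members. *CD5L* was at 1657 CPM and in 92.4% of barcodes, against 14.6 CPM and 3.53%. Subcluster 8 was less deep than subcluster 5, with a median of 1946 UMIs against 7494, and a UMI of *PTPRC* was found in 27.7% of its barcodes against 77.5%. With 10 principal components in place of 20, a cluster of 397 barcodes held 86.7% of the *MARCO* UMIs.

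In the *MARCO* subclusters, *SLC40A1* was at 1668 CPM against 56.7 in the other members, *HMOX1* at 9210 against 2701, *FTL* at 25145 against 7838, *CD163* at 564 against 142, *PLTP* at 2431 against 198, and *NR1H3* at 879 against 242. The transcriptional regulators *ID3* and *ID1* were at 639 and 465 CPM against 157 and 138. *ACP5*, lower in liver than in intestine over all members, was at 1590 CPM here, inside its intestinal range. *SPIC*, by contrast, was at 16.7 CPM in these barcodes and 56.0 CPM in the other members, and *APOE* at 167 and 541 CPM. *TIMD4* at 371 CPM and *FOLR2* at 667 CPM were both inside their intestinal ranges.

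Among genes chosen after their values were seen, *PLVAP*, a gene of fenestrated endothelium, was at 746 CPM against 9.80, *CDH5* at 635 against 11.0, *TMEM37* at 399 against 4.34, the alkaline phosphatase gene *ALPL* at 163 against 1.69, and *PTGS1*, cyclooxygenase 1, at 231 against 12.9. *PLA2G2D1* was at 375 CPM against 4.42, inside its intestinal range. *CDH5* and *PLVAP* are known from endothelium, but the endothelial genes *KDR* at 6.47, *STAB2* at 3.04, and *VWF* at 0.761 CPM were low in the same barcodes, and *PECAM1* was at 13.7 CPM against 107 in the other members. In all, 106 of 7124 genes were 4-fold higher and 145 were 4-fold lower in the *MARCO* subclusters than in the other members.

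Class II genes were low in these barcodes. *BOLA-DRA* was at 289 CPM against 4327 in the other members, *CD74* at 234 against 3492, *BOLA-DMA* at 22.1 against 296, and *BLA-DQB*, named after its value was seen, at 168 against 2704. Each of these 4 levels was below the lowest intestinal library, for *BOLA-DRA* 7767 CPM. Also low were *CX3CR1* (3.04 against 91.3 CPM), the lipid-sensing receptor gene *TREM2* (18.3 against 218 CPM), the fatty acid binding protein gene *FABP5* (22.4 against 386 CPM), and *F13A1* (119 against 759 CPM). Barcodes of the *MARCO* subclusters had fewer UMIs than the members as a whole (median 5897 against 8673), and 90.9% of them had 1% or more C1q against 48.6% of the others. Without them, the liver members had *MARCO* at 283 CPM, which stayed above every intestinal library (log2 4.32 to the highest), and *CD5L* at 14.6 CPM (log2 0.53 to the duodenum).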

How the data were processed

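Single-cell RNA was measured in 15 libraries with the 10x Genomics 3' kit. The files held UMI counts per gene and barcode, which the authors made with Cell Ranger 3.1.0 with reads mapped to ARS-UCD1.2, and deposited without normalization. The annotation release is not given in the sources used here. Of 27270 genes listed, 7540 had no symbol.

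The members and gene lists were chosen with earlier results of these data known. UMIs were summed over barcodes and scaled to CPM. Genes at 10 CPM or more in either group were compared on CPM + 5, and 4-fold was the call. Intervals of levels are exact Poisson and those of shares Clopper-Pearson (95%), and cover counting error only. *C1QA*, *C1QB*, *CD3E*, *PTPRC*, and mitochondrial genes were left out of the named genes but not of the counts of called genes. Named genes had a symbol and at least 50 CPM in the higher group, up to 20 per direction by log2 ratio, beside members of the lists with the largest ratios. No library has a replicate, so no test was made. List medians against intestine used the median of its 6 libraries. No limit was set on mitochondrial UMIs. Clusters came from scanpy 1.11.5 and leidenalg 0.10.2 (2000 variable genes, 20 components, 20 neighbors). Doublets were scored by the Scrublet method, marked at 0.8% per 1000 barcodes, and kept. Alternatives changed the gate, doublets, pseudocount, minimum level, fold, normalization, and intestinal libraries. Leaving out the *MARCO* subclusters or shared barcodes, and a C1q share of 1%, were alternatives chosen after seeing the data. Python 3.11.15, NumPy 2.4.6, and SciPy 1.17.1 were used.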

Additional observations from a re-analysis of the deposited data

Results flagged for a closer look

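Gated barcodes of libraries outside the comparisons also held *CD5L* and *MARCO*, above the level that 3 UMIs would give in the library. In the NB salivary gland, *CD5L* was at 654 CPM (173 UMIs in 30 of 79 gated barcodes) and *MARCO* at 1073 CPM (284 UMIs in 21), against 165 and 2182 CPM in the liver members, while *FGB*, *AHSG*, and *ALB* had 0 UMIs there (3 UMIs would be 11.3 CPM, and the Poisson 95% interval of 0 UMIs reaches 13.9 CPM). *CD5L* was at 9.52 CPM in the NB abomasum (16 UMIs in 7 of 198 barcodes). In adult tissues *CD5L* was at 7.34 CPM in jejunum (120 UMIs in 30 of 4179 barcodes), 53.6 CPM in cecum (36 UMIs in 6 of 181), and 19.4 CPM in colon (22 UMIs in 4 of 227), and *MARCO* had 0 UMIs in all 4 adult libraries. These are values of 1 library each, and the differences were not tested.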

How the results depend on the processing

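With 1 library per tissue, depth limits only counting error, and calf, tissue, and dissociation cannot be told apart. The gate's share of liver barcodes (26.0%) became 21.1% with 3 UMIs each of *C1QA* and *C1QB*, 22.8% with 0.1% C1q, 13.9% with 1% C1q, 30.4% with *CD3E* not used, 26.9% without marked doublets, 21.6% with *PTPRC* needed, and 22.9% without the *MARCO* subclusters. Against other *PTPRC* barcodes, the 35 higher and 86 lower genes became 60 and 155 with a pseudocount of 1 CPM, 20 and 30 with 20 CPM, 9 and 34 at 8-fold, and 248 and 258 at 2-fold. The higher genes were 22 without the *MARCO* subclusters, where the log2 ratio of *CD5L* reversed to −0.021, and 70 against *PTPRC* barcodes without C1q. The lower genes were 49 with *CD3E* not used and 54 at 50 CPM. Against intestine, the 25 above and 31 below became 41 and 107 (pseudocount 1 CPM), 9 and 11 (20 CPM), 10 and 7 (8-fold), and 156 and 161 (2-fold), with 15 above at 50 CPM. Leaving out each intestinal library gave 25 to 52 above, the most without rectum, and 33 to 40 below. The 17 genes also 4-fold in *CD3E* barcodes became 11 (under 10% mitochondrial UMIs, 0.1% C1q, doublets removed, or *PTPRC* needed), 10 (3 UMIs, or 50 CPM), 9 (1% C1q), 28 and 2 (pseudocounts 1 and 20 CPM), 7 and 64 (8- and 2-fold), and 16 to 25 over left-out libraries. The Kupffer cell list median of 1.30 against intestine was 1.78 with 1% C1q, 0.997 without the *MARCO* subclusters, and 0.99 with 20 CPM. It was 1.06 with no minimum level, 1.19 with median-of-ratios scaling, and 1.28 to 1.32 over left-out libraries. Fewer UMIs, barcodes, or genes enter under several of these settings by construction, and for the rest the cause was not tested. Of 1291 pairs of a named called gene and a setting, 1257 kept a 4-fold difference and 1 reversed. For intestine, these pairs used the median of its libraries, which is easier to pass than the rule against every library. By that rule, 13 of the 25 genes above and 24 of the 31 below were called again with *PTPRC* needed. With a pseudocount of 20 CPM, 9 and 11 were called again. Median signs of the class II, Fc receptor, lipid-associated, cell division, transcription factor, and growth factor receptor lists depended on the setting. No paired analysis was possible because each group is 1 library.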
